A study of Drosophila melanogaster with 15 samples.

Results

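The maturation of the control mushroom body was followed as the difference in nuclear RNA between newly eclosed and mature adult male Drosophila melanogaster, in the 8 control libraries among the 15 of the series. The members were taken by title: 3 juvenile control libraries from flies 0 to 3 hours past eclosion, and 5 mature control libraries from flies of 1 to 5 days. Every control fly carried UAS-unc84::GFP, R14H06-Gal4 and UAS-mCherryRNAi, so the baseline at both ages already includes a GFP-tagged nuclear envelope protein and an active RNAi hairpin, directed against a fluorescent protein gene that flies do not have. The R14H06-Gal4 driver set which nuclei were tagged, and the tagged nuclei were isolated with INTACT, an affinity purification of nuclei from a chosen cell type. The 7 other libraries (2 juvenile and 5 mature) carried UAS-Bap6032503, an RNAi construct against the chromatin gene Bap60, in place of the control hairpin and serve below as a separate pair of ages and for the test of the difference between genotypes. Flies were kept at 25°C and 70% humidity. The labels do not say whether libraries of an age came from separate sets of flies or how many flies were pooled, and the spread that the p-values rest on may therefore be technical.

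The mushroom body is the paired centre of the fly brain in which intrinsic neurons, the Kenyon cells, store olfactory memories. Kenyon cells are born through larval and pupal life and are remodelled under the steroid hormone ecdysone, and the adult leaves the pupal case with soft, pale cuticle that hardens and darkens in the following hours. During the same period ecdysone signalling ends, juvenile hormone signalling begins, tissues of the pupa that the adult no longer needs die, and the fly starts to feed and to learn.

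Total gene counts were 37879789 to 45731087 in the juvenile libraries and 18173548 to 70495790 in the mature ones. Levels are given as CPM, counts scaled to 1000000 gene counts of a library after TMM scaling, as mean ± SD with n = 3 juvenile and n = 5 mature libraries, and lists of values run from replicate 1 upward. Each log2 fold change is mature minus juvenile, and genes with an adjusted p under 0.05 in edgeR's quasi-likelihood test are spoken of as called. The juvenile libraries varied more among themselves, with a biological coefficient of variation of 0.687 against 0.25 in the mature ones and Spearman correlations across genes of 0.946 to 0.964 against 0.975 to 0.991. No 2 libraries of an age agreed within sampling noise. Genes that lie wholly inside another gene could not be followed: 807 of 814 protein-coding genes nested in a gene on the same strand, and 1022 of 1027 nested in one on the other strand only, had 0 counts in all 8 libraries, against 188 of 6846 (2.75%) that overlap no other gene. The mature files list an entry for Unc84 and the juvenile files do not, so the ages were counted against different sets of features, and any other difference in counting between the ages cannot be told apart from age. Of the 125 genes described here, chosen by a rule given with the methods, 67 overlap another gene, 38 of them one on the same strand. Whether counting used strand is not given in the sources used here. Since nesting went with 0 counts on either strand (99.1% on the same, 99.5% on the other only), overlap on the other strand may cost reads as well.

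Of 10358 genes tested, 2283 (22%) were called, 1241 higher (12%) and 1042 lower (10.1%) in mature flies. The median log2 change of all tested genes was 0.006. The balance of directions depended on scaling: with RLE scaling 1126 genes were higher and 1223 lower, and with DESeq2 1406 and 1492. Changes of 2-fold or more made up 410 of the genes called higher and 469 of those called lower. The mature and juvenile libraries did not overlap for 3030 genes (29.3%), with the mature libraries above for 1743 (16.8%) and below for 1287 (12.4%). Of the genes called higher 95.5% had no overlap, and of those called lower 92%, so for a called gene a lack of overlap adds little. Genes named for the largest changes were required to have no overlap. Since the ages differed in spread, limma-voom with a separate weight for each age was run beside edgeR, and it called 1359 genes, 668 higher and 691 lower, of which 1306 were also among the 2283. Without mature control 3, the deepest library, 1524 genes were called, 813 of them higher.

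**Figure D1:**
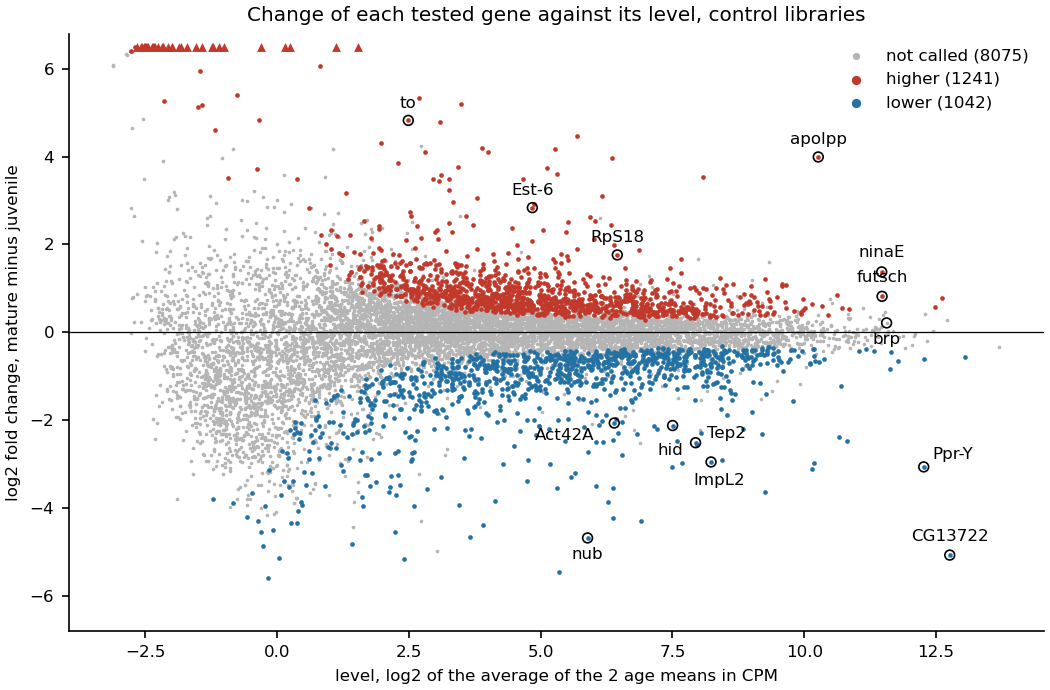
Change with age of each of the 10358 genes tested (vertical axis, log2 fold change, mature minus juvenile) against its level (horizontal axis, log2 CPM averaged over the ages); red points were called higher (1241), blue points lower (1042) and grey points not called (8075). Triangles at the top mark 34 called genes beyond 6.5. Of the genes called higher, 36 had 0 counts in all juvenile libraries, none of them above a mature mean of 5.77 CPM. In contrast, apolpp at the upper right and CG13722 and Ppr-Y at the lower right changed at high level.

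The gene nub (FBgn0085424; chromosome 2L, 12587625 to 12628135, plus strand, BDGP6.54), which encodes a POU-domain transcription factor of wing and neural development, stood at 148, 83.2 and 111 CPM in the juvenile libraries and 1.96, 3.6, 7.62, 6.68 and 1.89 CPM in the mature libraries. All 5 mature libraries lay below all 3 juvenile ones, a 25.7-fold (log2 -4.68, SE 0.49, adjusted p = 0.000664) decrease. The homeodomain gene al, an appendage patterning factor, fell from 15.6 ± 5.17 to 1.61 ± 1.08 CPM by 9.79-fold (log2 -3.29, adjusted p = 0.000687). Reads of CG13722 (FBgn0035553; chromosome 3L, 4485159 to 4490963, minus strand) were abundant in young flies, at 9064, 13680 and 17700 CPM in the juvenile libraries and 277, 500, 572, 574 and 75.7 CPM in the mature libraries. The decrease was 33.7-fold (log2 -5.07, SE 0.63, adjusted p = 0.00178). The gene CG13068 fell from 10.3 ± 4.93 to 0.277 ± 0.0775 CPM by 35.6-fold (log2 -5.16, adjusted p = 4.39e-05), and the noncoding RNA gene lncRNA:CR45973 from 79.5 ± 34.9 to 1.78 ± 1.82 CPM by 44.3-fold (log2 -5.47, adjusted p = 0.00337). Mur18B, a mucin-related gene, fell from 28.6 ± 10.5 to 1.35 ± 1.46 CPM by 20.9-fold (log2 -4.38, adjusted p = 0.0088).

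Genes for the cuticle itself moved both ways. Of 66 tested genes of cuticle proteins and chitinases, 13 were lower (19.7%) and 4 higher (6.06%), with a median log2 change of -0.59. The chitinase gene Cht5, whose product digests old cuticle at the moult, fell from 323 ± 18.6 to 38.7 ± 26 CPM by 8.33-fold (log2 -3.06, adjusted p = 0.00806), a call that was lost with a weight per age (adjusted p = 0.0504). Cpr76Bd fell from 230 ± 57.1 to 52.4 ± 15.7 CPM by 4.4-fold (log2 -2.14, adjusted p = 0.000272), while the chitin-binding protein genes Cpr72Ec and Cpr65Au rose, from 96.5 ± 9.61 to 306 ± 39 CPM (3.17-fold, log2 1.66, SE 0.14, adjusted p = 4.98e-05) and from 13.8 ± 6.41 to 78.2 ± 11.3 CPM (5.68-fold, log2 2.51, SE 0.27, adjusted p = 0.000266). The tyrosine hydroxylase gene ple, needed both for dopamine and for the tanning of cuticle, was at 3223, 2736 and 3227 CPM in the juvenile libraries and 106, 489, 764, 1191 and 187 CPM in the mature libraries. The ages did not overlap, and among the mature libraries control 4 was highest and controls 1 and 5 lowest, and CG13722, ImpL2, hid and Cht5 likewise had their highest mature level in control 4 and their lowest in controls 1 and 5. The 5.59-fold (log2 -2.48, SE 0.71, adjusted p = 0.042) decrease was lost without any 1 of juvenile controls 1 (adjusted p = 0.0944), 2 (0.0757) and 3 (0.083) and mature controls 2 (0.0685) and 3 (0.0806), and with weights per library (0.134) or per age (0.186). The dopa decarboxylase gene Ddc, next in the same pathway, fell from 195 ± 24.4 to 97.3 ± 15.7 CPM by 2.01-fold (log2 -1.01, adjusted p = 0.00103). The count of lower cuticle genes was 8 when juvenile control 1 or 2 was left out or with a weight per age, 7 when mature control 3 was and 19 when mature control 4 was. The count of higher ones was 8 when juvenile control 1 was left out, and 2 when mature control 3 was or with a weight per age. Summed markers of epidermis and cuticle were at 314 to 347 CPM in juvenile and 166 to 330 CPM in mature libraries, and their part in these changes was not tested.

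Among 24 tested genes of the ecdysone response, 6 (25%) were lower and 1 (4.17%) higher, with a median of -0.20, and the receptor gene itself was not called. The ecdysone-inducible gene ImpL2, which encodes a secreted insulin-binding protein, was at 597, 448 and 552 CPM in the juvenile libraries and 34.4, 69.3, 79.9, 122 and 37.6 CPM in the mature libraries. It fell 7.75-fold (log2 -2.95, SE 0.40, adjusted p = 0.0019), with no overlap between ages. The ecdysone-induced transporter gene E23 fell from 45.1 ± 7.95 to 18.2 ± 3.53 CPM by 2.48-fold (log2 -1.31, adjusted p = 0.000687). Eip74EF, an ETS-domain early response factor, fell from 903 ± 71.9 to 341 ± 147 CPM by 2.65-fold (log2 -1.40, adjusted p = 0.00859), a call lost with a weight per age (adjusted p = 0.08). Eip75B, a nuclear receptor, fell from 1614 ± 158 to 1055 ± 173 CPM by 1.53-fold (log2 -0.61, adjusted p = 0.0118), and lost its call without juvenile control 3 (0.0679) and with a weight per age (0.0527). EcR was at 857 ± 50 CPM in juvenile and 762 ± 87.9 CPM in mature libraries (log2 -0.17). Without juvenile control 3 the count of lower genes was 3, and with a weight per age 2.

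Of 11 genes on a list for the temporal identity of Kenyon cells, 3 (27.3%) were lower and 0 higher, with a median of -0.13. Imp, also listed, could not be matched to a gene ID and is missing. The BTB-domain factor gene bab1 fell from 130 ± 3.43 to 81.2 ± 11.7 CPM by 1.61-fold (log2 -0.68, adjusted p = 0.00418), and lncRNA:let7C, the primary transcript of the let-7 cluster of microRNAs that marks the switch to late-born Kenyon cell fates, from 158 ± 17.5 to 100 ± 16 CPM by 1.58-fold (log2 -0.66, adjusted p = 0.00869). The RNA-binding protein gene Syp (log2 0.02), its target chinmo (log2 -0.13) and mamo (log2 -0.12) were not called. Both bab1 and lncRNA:let7C overlap other genes on the same strand.

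Cell death genes were lower in mature flies for 8 of 21 tested (38.1%), with 1 higher (4.76%) and a median log2 change of -0.57. The pro-apoptotic gene hid (FBgn0003997; chromosome 3L, 18167745 to 18185641, minus strand), which blocks inhibitors of apoptosis, was at 406, 389 and 457 CPM in the juvenile libraries and 29.1, 74.3, 97.2, 116 and 48.1 CPM in the mature libraries. Every mature library was below every juvenile one, and the decrease was 5.72-fold (log2 -2.52, SE 0.39, adjusted p = 0.0035). The related gene grim fell from 2.62 ± 1.18 to 0.507 ± 0.151 CPM by 5.09-fold (log2 -2.35, adjusted p = 0.0133). The effector caspase gene Drice fell from 37.6 ± 2.46 to 16.9 ± 2.19 CPM by 2.22-fold (log2 -1.15, adjusted p = 0.000456), the caspase gene Strica from 7.75 ± 2.64 to 2.32 ± 1.06 CPM by 3.33-fold (log2 -1.74, adjusted p = 0.00844), and Buffy, of the Bcl-2 family, from 36.4 ± 3.6 to 18.4 ± 4.64 CPM by 1.98-fold (log2 -0.98, adjusted p = 0.00579). With any 1 library left out, 7 to 11 genes of the list were lower, and 7 with a weight per age. In bulk RNA such as this, fewer cells of a type and less RNA per cell cannot be told apart.

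Genes for neuronal wiring were often lower, and none was called higher. Of 46 tested axon guidance and adhesion genes, 17 (37%) were lower, 0 were higher and 43 had a negative log2 change, with a median of -0.33. Among all tested genes with an annotated span of 20 to 50 kb, 23.6% were lower and 4.96% higher. Among those over 50 kb, 29.4% were lower and 2.7% higher. The part of gene span in the counts of this and the other gene lists was not tested. Ten-m (FBgn0004449; chromosome 3L, 22293044 to 22407863, minus strand), a teneurin that matches synaptic partners, was at 1314, 1440 and 1350 CPM in the juvenile libraries and 875, 739, 727, 930 and 862 CPM in the mature libraries. Each mature library lay below each juvenile library, a 1.66-fold (log2 -0.73, SE 0.12, adjusted p = 0.00179) decrease. The adhesion protein gene Fas3 fell from 382 ± 14 to 223 ± 31.4 CPM by 1.71-fold (log2 -0.78, adjusted p = 0.00213), the immunoglobulin-family gene kirre from 259 ± 27.9 to 165 ± 15.8 CPM by 1.58-fold (log2 -0.66, adjusted p = 0.00305) and the semaphorin gene Sema1b from 208 ± 18 to 134 ± 13.5 CPM by 1.55-fold (log2 -0.64, adjusted p = 0.00349). The Slit receptor gene robo1 was not called (log2 -0.23). The changes were modest in size, and the count of lower genes depended on single libraries: leaving out juvenile control 2, juvenile control 3 or mature control 3 gave 7, 8 and 11, and a weight per age gave 7.

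The cell-surface recognition families that label synaptic partners showed the same direction. Among 32 dpr and DIP genes, whose immunoglobulin-domain products bind each other across synapses, 13 (40.6%) were lower and 0 higher, with a median of -0.40. DIP-epsilon was at 108, 102 and 78.1 CPM in the juvenile libraries and 44.3, 44, 44.3, 55.3 and 43.6 CPM in the mature libraries. The ages were separated and the mature libraries lay within 43.6 to 55.3 CPM, a 2.07-fold (log2 -1.05, SE 0.14, adjusted p = 0.000685) decrease. DIP-eta fell from 32.6 ± 13.4 to 14.3 ± 1.96 CPM by 2.29-fold (log2 -1.19, adjusted p = 0.00521) and dpr17 from 91.5 ± 3 to 62.2 ± 7.17 CPM by 1.47-fold (log2 -0.56, adjusted p = 0.00868). Of 21 beat and side genes, another such pair of families, 7 (33.3%) were lower and 0 higher, with a median of -0.29, and side-V fell from 386 ± 44 to 189 ± 29.2 CPM by 2.04-fold (log2 -1.03, adjusted p = 0.00069). The dpr and DIP count was 4 with juvenile control 2 left out, 7 with juvenile control 3 or mature control 3 left out, and 5 with a weight per age. The beat and side count was 4 when juvenile control 1 or mature control 2 was left out, 2 when juvenile control 2 or 3 was, and 1 when mature control 3 was or with a weight per age.

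**Figure D2:**
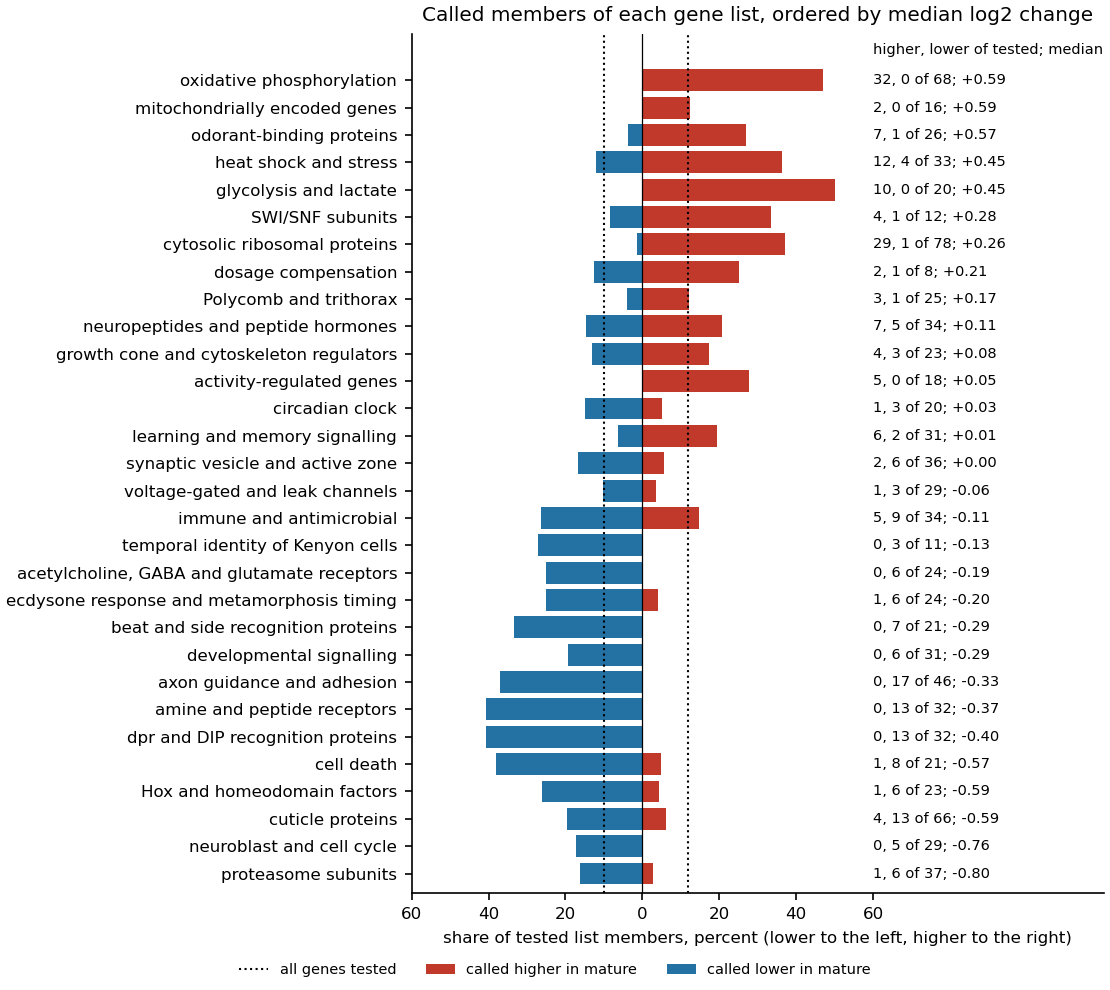
Share of the tested members of each of 30 gene lists called lower (blue, left) or higher (red, right) in mature flies, in percent, with the counts and the median log2 change at the right; dotted lines mark the shares among all genes tested (10.1% lower and 12% higher). Wiring, receptor and cell death lists have blue bars only or mostly, and respiratory, glycolytic and ribosomal lists have almost only red bars.

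Among growth cone and cytoskeleton genes, both cytoplasmic actin genes fell, while futsch and a tubulin gene rose. Act42A (FBgn0000043; chromosome 2R, 6013910 to 6015689, minus strand), a cytoplasmic actin gene, was at 132, 136 and 140 CPM in the juvenile libraries and 33.9, 28.8, 38.8, 30.2 and 30.5 CPM in the mature libraries. The values were tight at both ages and far apart, and the decrease was 4.19-fold (log2 -2.07, SE 0.12, adjusted p = 5.09e-06). Act5C, the other cytoplasmic actin gene, fell from 1363 ± 153 to 839 ± 103.8 CPM by 1.62-fold (log2 -0.70, adjusted p = 0.00381). The actin filament elongation factor gene ena fell from 384 ± 36.5 to 205 ± 36 CPM by 1.88-fold (log2 -0.91, adjusted p = 0.00159). The microtubule-binding protein gene futsch (FBgn0259108; chromosome X, 1409069 to 1453686, plus strand), a MAP1B homologue that stabilises axonal and synaptic microtubules, was at 1842, 2332 and 2010 CPM in the juvenile libraries and 4450, 3029, 3728, 3258 and 3721 CPM in the mature libraries. No libraries overlapped and the increase was 1.76-fold (log2 0.82, SE 0.15, adjusted p = 0.00351). The tubulin gene alphaTub84D rose from 38.5 ± 0.469 to 58.6 ± 1.64 CPM by 1.52-fold (log2 0.61, adjusted p = 0.00307). Of 23 genes on the list, 4 (17.4%) were higher and 3 (13%) lower, and 2 were higher when juvenile control 1 or 3 or mature control 3 was left out, or with a weight per age. Actin genes are near-identical in coding sequence, so reads may be split between copies.

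Of 32 tested amine and peptide receptor genes, 13 (40.6%) were lower and 0 higher, with a median of -0.37. The myosuppressin receptor gene MsR2 was at 51.3, 37.1 and 38 CPM in the juvenile libraries and 18.6, 16.9, 17.6, 22.1 and 22.4 CPM in the mature libraries. All mature libraries were below all juvenile ones, a 2.16-fold (log2 -1.11, SE 0.16, adjusted p = 0.000917) decrease. The serotonin receptor gene 5-HT2A fell from 273 ± 9.24 to 149 ± 25 CPM by 1.83-fold (log2 -0.87, adjusted p = 0.00162), the allatostatin receptor genes AstA-R1 and AstC-R1 by 1.9-fold (log2 -0.92, adjusted p = 0.0039) and by 1.77-fold (log2 -0.83, adjusted p = 0.00396). Dop1R1 (log2 0.20) and Dop1R2 (log2 0.20), the dopamine receptors through which Kenyon cells learn and forget, were not called, with Dop1R1 at 929 to 1407 CPM in juvenile and 990 to 1651 CPM in mature libraries. Without juvenile control 1, or with a weight per age, 8 receptor genes of this list were lower. Among 24 acetylcholine, GABA and glutamate receptor genes 6 (25%) were lower and 0 higher, with a median of -0.19. The nicotinic subunit gene nAChRbeta2 fell from 90.7 ± 5.7 to 57.2 ± 5.52 CPM by 1.59-fold (log2 -0.67, adjusted p = 0.00312) while nAChRalpha1 was not called (log2 0.04). That count was 2 without juvenile control 2 or 3, 3 without mature control 3 and 1 with a weight per age.

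Of 36 synaptic vesicle and active zone genes 8 (22.2%) were called, against 22% of all genes, 6 (16.7%) of them lower and 2 (5.56%) higher. The active zone scaffold gene brp was at 2048, 3285 and 3070 CPM in the juvenile libraries and 3969, 2720, 3345, 2868 and 3340 CPM in the mature libraries. The ages overlapped and brp was not called (log2 0.21). The vesicle protein gene Syngr fell from 608 ± 70.4 to 362 ± 51.4 CPM by 1.68-fold (log2 -0.75, adjusted p = 0.00367). The Na,K-ATPase beta subunit genes nrv3 and nrv2 fell from 4040 ± 474 to 2251 ± 317 CPM by 1.79-fold (log2 -0.84, adjusted p = 0.00221) and from 229 ± 12.5 to 153 ± 10.5 CPM by 1.5-fold (log2 -0.58, adjusted p = 0.00284). Rop, a partner of syntaxin in vesicle fusion, rose from 128 ± 8.53 to 181 ± 14.9 CPM by 1.42-fold (log2 0.50, adjusted p = 0.00915), a call lost with a weight per age (adjusted p = 0.0545). The count of lower genes was 3 without juvenile control 2 or 3 or with a weight per age. The count of higher genes was 1 when juvenile control 1 or 3 or mature control 3 or 5 was left out, and 0 with a weight per age.

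Of 29 voltage-gated and leak channel genes, 3 (10.3%) were lower and 1 (3.45%) higher, against 10.1% and 12% of all genes. The inward rectifier gene Irk2 fell from 65.8 ± 9.58 to 34.4 ± 4.87 CPM by 1.91-fold (log2 -0.93, adjusted p = 0.00176), and Sh, the Shaker potassium channel gene, was not called (log2 -0.20). The count of lower channel genes was 1 without juvenile control 3 or mature control 3, or with a weight per age, and 6 without juvenile control 1.

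Among 31 learning and memory genes 6 (19.4%) were higher and 2 (6.45%) lower. Neither rut nor dnc, the adenylyl cyclase and phosphodiesterase of the cAMP pathway, was called (log2 -0.06 and 0.23). Fmr1, an RNA-binding repressor of translation, rose from 101 ± 7.09 to 158 ± 12.2 CPM by 1.57-fold (log2 0.65, adjusted p = 0.00274) and the small GTPase gene Ras85D from 28.9 ± 2.88 to 46.6 ± 2.98 CPM by 1.61-fold (log2 0.69, adjusted p = 0.00345). The count of higher genes was 3 when juvenile control 1 was left out and 2 when juvenile control 3 or mature control 3 or 5 was, or with a weight per age. The count of lower genes was 0 when juvenile control 2 or 3 or mature control 3 was left out, or with a weight per age.

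**Figure D3:**
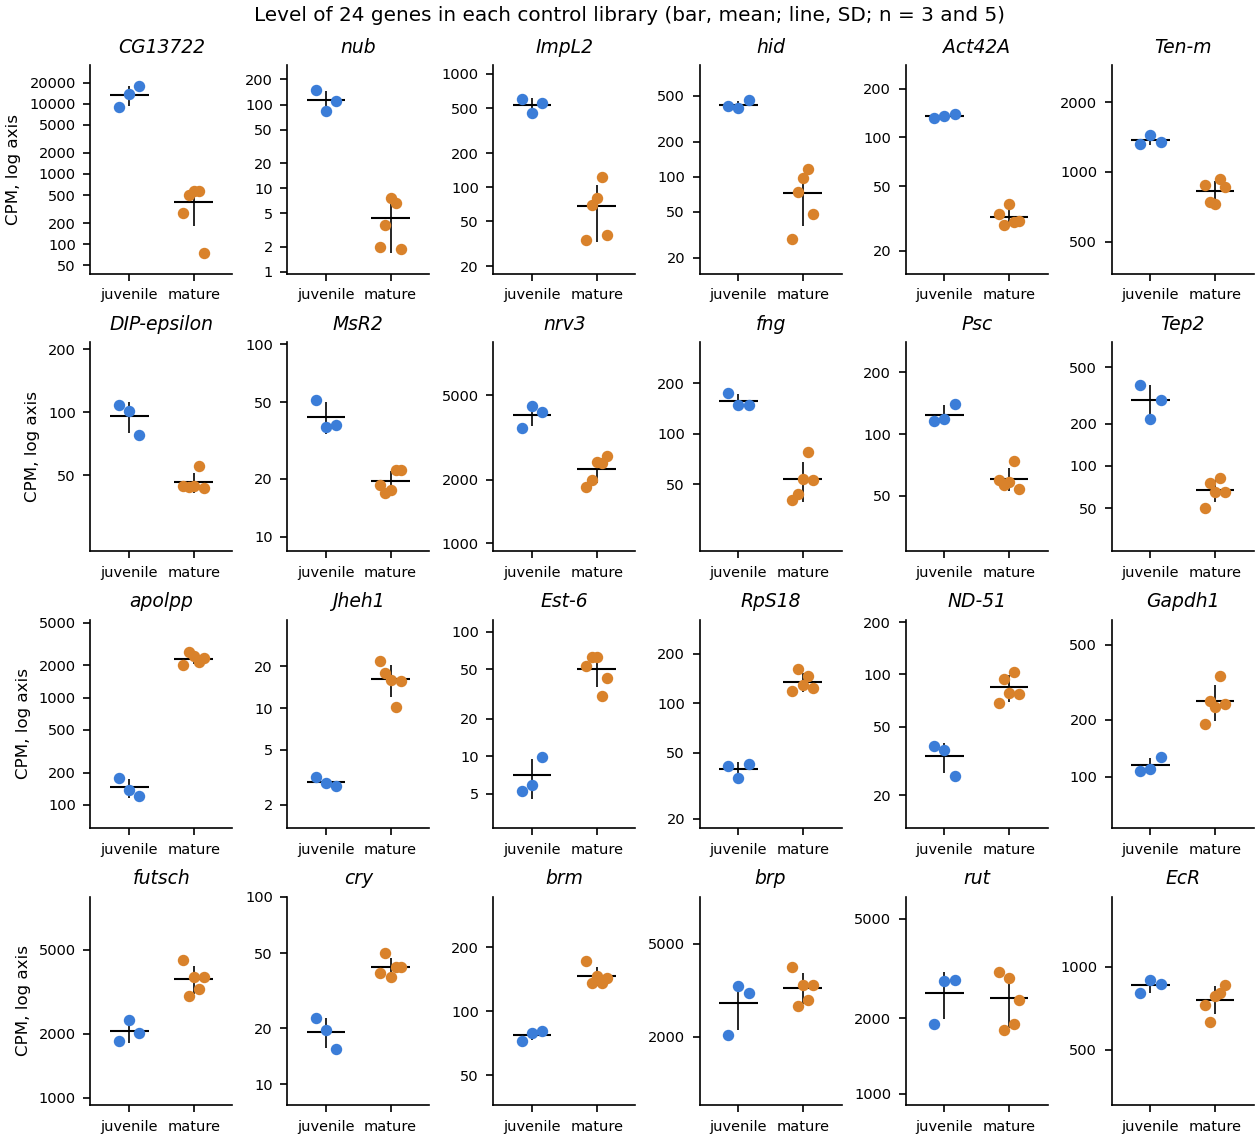
Level of 24 genes in each control library (points, CPM on a log axis; horizontal bars, means; vertical lines, SD; blue, 3 juvenile and orange, 5 mature libraries). The first 12 genes were lower and the next 9 higher in mature flies with no overlap, and brp, rut and EcR overlap between ages.

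Developmental regulators were lower in several families. Of 31 developmental signalling genes 6 (19.4%) were lower and 0 higher, with a median of -0.29. The Notch glycosyltransferase gene fng was at 175, 148 and 148 CPM in the juvenile libraries and 40.2, 43.8, 54.2, 77.7 and 53.2 CPM in the mature libraries. The decrease was 2.92-fold (log2 -1.55, SE 0.19, adjusted p = 0.000488), and no mature library reached the juvenile range. The EGF receptor ligand gene vn fell from 216 ± 20.1 to 110 ± 26 CPM by 1.96-fold (log2 -0.97, adjusted p = 0.00354). Of 23 Hox and homeodomain genes, 6 (26.1%) were lower and 1 (4.35%) higher, with a median of -0.59: the LIM-homeodomain gene Lim3 fell from 40.4 ± 4.05 to 20.1 ± 3.23 CPM by 2.02-fold (log2 -1.01, adjusted p = 0.00146) and the POU factor gene acj6, which sets odour receptor choice and wiring, from 52.8 ± 12.1 to 28.3 ± 5.22 CPM by 1.87-fold (log2 -0.90, adjusted p = 0.00647). Both Lim3 and acj6 are known from neurons other than Kenyon cells. Among 29 neuroblast and cell cycle genes 5 (17.2%) were lower and 0 higher, with a median of -0.76, including the asymmetric division genes numb (1.7-fold, log2 -0.76, SE 0.13, adjusted p = 0.00215) and insc (2.05-fold, log2 -1.04, SE 0.24, adjusted p = 0.0107) and the mitotic kinase gene polo, which was at 2.56 ± 1.71 CPM in juvenile and 0.278 ± 0.109 CPM in mature libraries.

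The SWI/SNF ATPase gene brm was at 72.4, 79.6 and 80.5 CPM in the juvenile libraries and 174, 136, 147, 136 and 144 CPM in the mature libraries. The increase was 1.9-fold (log2 0.93, SE 0.12, adjusted p = 0.000622), with no overlap. Of 12 SWI/SNF genes 4 (33.3%) were higher and 1 (8.33%), Act5C, lower, with a median of 0.28. Bap111 rose from 17 ± 4.85 to 31.9 ± 2.71 CPM by 1.88-fold (log2 0.91, adjusted p = 0.00613), and osa, the signature subunit of the BAP form of the complex, was not called (log2 0.17). Bap60, the gene targeted by RNAi in the other libraries of the series, was at 9.55 ± 3.67 CPM in juvenile and 17.4 ± 2.75 CPM in mature libraries (1.82-fold, log2 0.87, SE 0.26, adjusted p = 0.0329). Its call was lost without juvenile control 2 (adjusted p = 0.0502), mature control 1 (0.0741), 2 (0.0632), 3 (0.069) or 5 (0.0522), and with RLE scaling (0.0501). The list count was 2 without mature control 3 or 5. Of 25 Polycomb and trithorax genes, 3 (12%) were higher and 1 (4%) lower, and the 3 lost their calls when juvenile control 1 or mature control 3 or 5 was left out, or with a weight per age. The lower gene was Psc (FBgn0005624; chromosome 2R, 12965997 to 12980994, minus strand), a Polycomb repressive complex subunit, at 116, 117.9 and 140 CPM in the juvenile libraries and 59.5, 56.5, 58.3, 73.8 and 54 CPM in the mature libraries. It fell 2.06-fold (log2 -1.04, SE 0.13, adjusted p = 0.000516).

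apolpp (FBgn0087002; chromosome 4, 1060969 to 1077273, plus strand), the apolipoprotein that carries lipids in the haemolymph and is made in fat body, was at 177, 138 and 122 CPM in the juvenile libraries and 2002, 2682, 2426, 2152 and 2323 CPM in the mature libraries. The mature values spanned 2002 to 2682 CPM, above every juvenile value, and the increase was 15.9-fold (log2 3.99, SE 0.18, adjusted p = 5.15e-07). The fat body gene to, which links feeding to the clock, rose from 0.381 ± 0.332 to 10.8 ± 2.37 CPM by 28.4-fold (log2 4.83, adjusted p = 0.00232). Jheh1, which encodes a juvenile hormone epoxide hydrolase, rose from 2.92 ± 0.224 to 16.3 ± 4.23 CPM by 5.58-fold (log2 2.48, adjusted p = 0.000176). Est-6, which encodes a carboxylesterase, increased 7.15-fold (log2 2.84, SE 0.30, adjusted p = 0.000264) from 7.03 ± 2.52 to 50.3 ± 13.9 CPM. Summed fat body markers were at 413 to 465 CPM in juvenile and 2402 to 3188 CPM in mature libraries, 6.37-fold higher. The mean level of apolpp was 2317 of 2746 CPM in that sum in mature libraries and 145.5 of 430.8 CPM in juvenile ones. Of 14 fat body markers tested, 7 had a positive and 7 a negative log2 change, with a median of 0.19. Of these 6 were called higher and 2 lower, and with a weight per age 2 were higher and 1 lower. Fat body is a tissue outside the neurons of the brain, and the part of its RNA in these increases was not tested.

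Genes of energy metabolism were higher in large numbers. Of 68 oxidative phosphorylation genes encoded in the nucleus 32 (47.1%) were higher and 0 lower, with a median of 0.59. The complex I subunit gene ND-51 was at 38.4, 36.5 and 25.9 CPM in the juvenile libraries and 68.2, 94.2, 78, 103.8 and 76.6 CPM in the mature libraries. The increase was 2.51-fold (log2 1.33, SE 0.18, adjusted p = 0.000846), and mature control 4 was highest. ND-24 rose from 11.8 ± 1.85 to 26.9 ± 4.96 CPM by 2.27-fold (log2 1.18, adjusted p = 0.00171), ND-75 from 77.2 ± 1.22 to 153 ± 33 CPM by 1.99-fold (log2 0.99, adjusted p = 0.00268) and the complex III gene Cyt-c1 from 130 ± 9.08 to 249 ± 45.5 CPM by 1.91-fold (log2 0.94, adjusted p = 0.00225). Among 16 genes of the mitochondrial genome 2 (12.5%) were higher and 0 lower. That count was 1 when juvenile control 1 or 3 was left out, 0 when juvenile control 2 or mature control 2, 3 or 4 was or with a weight per age, and 7 when mature control 1 was. Of 20 glycolysis genes 10 (50%) were higher and 0 lower, with a median of 0.45. Gapdh1 rose from 115.1 ± 11.1 to 252 ± 54.6 CPM by 2.19-fold (log2 1.13, adjusted p = 0.00142), the enolase gene Eno from 216 ± 5.06 to 392.5 ± 33.2 CPM by 1.81-fold (log2 0.86, adjusted p = 0.000573) and Pgk from 46.3 ± 2.84 to 83.6 ± 10.5 CPM by 1.81-fold (log2 0.85, adjusted p = 0.00152). The oxidative phosphorylation count was 21 without mature control 2 and 12 with a weight per age, and the glycolysis count was 5 with a weight per age.

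Of 78 cytosolic ribosomal protein genes 29 (37.2%) were higher and 1 (1.28%) lower, with a median of 0.26. RpS18 (FBgn0010411; chromosome 2R, 20263979 to 20264848, plus strand) was at 41.8, 35 and 42.8 CPM in the juvenile libraries and 117.8, 161, 129, 145 and 123 CPM in the mature libraries. Every mature library was above every juvenile one, a 3.39-fold (log2 1.76, SE 0.14, adjusted p = 4.84e-05) increase. RpL26 rose from 47.5 ± 5.97 to 102 ± 9.56 CPM by 2.14-fold (log2 1.10, adjusted p = 0.000474) and RpL5 from 151 ± 7.4 to 305 ± 38.6 CPM by 2.03-fold (log2 1.02, adjusted p = 0.000514). With a weight per age 16 were higher. Of 37 proteasome genes, 6 (16.2%) were lower and 1 (2.7%) higher, 34 had a negative log2 change, and the median was -0.80. The count of lower genes was 0 when mature control 3 was left out, 1 when juvenile control 2 or 3 was or with a weight per age, 2 when juvenile control 1 was and 21 when mature control 4 was.

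Stress and immune genes were mixed. Of 33 heat shock and stress genes 12 (36.4%) were higher and 4 (12.1%) lower, with a median of 0.45. The mitochondrial chaperonin gene Hsp60A rose from 77.7 ± 9.31 to 147 ± 28 CPM by 1.89-fold (log2 0.92, adjusted p = 0.00348), and Xbp1, the transcription factor of the unfolded protein response, from 196 ± 32.7 to 332 ± 31.1 CPM by 1.69-fold (log2 0.76, adjusted p = 0.00319). Hsp70Bb, 1 of several near-identical copies among which reads cannot be placed with certainty, fell from 793 ± 157 to 358 ± 105 CPM by 2.22-fold (log2 -1.15, adjusted p = 0.00576), and lost its call with a weight per age (adjusted p = 0.0512). The count of higher genes was 5, 6 and 4 when juvenile controls 1, 2 and 3 were left out in turn, 7, 6 and 7 when mature controls 1, 3 and 5 were, and 2 with a weight per age. Of 34 immune genes 9 (26.5%) were lower and 5 (14.7%) higher, with a median of -0.11. The complement-like gene Tep2 fell from 295 ± 79.7 to 67.7 ± 12.2 CPM by 4.36-fold (log2 -2.12, adjusted p = 8.41e-05) and the Bomanin gene BomS2 from 42.9 ± 11.9 to 10.8 ± 4.21 CPM by 3.96-fold (log2 -1.99, adjusted p = 0.00147), while dl, an NF-kappaB factor, rose from 128 ± 24.7 to 268 ± 36 CPM by 2.09-fold (log2 1.06, adjusted p = 0.00126). Without juvenile control 3, 5 immune genes were lower.

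Neuropeptides, clock and activity genes moved gene by gene. Of 34 neuropeptide genes, 7 (20.6%) were higher and 5 (14.7%) lower, and 3 and 4 with a weight per age. The gut and brain peptide gene CCHa1 was at 62.3, 41.6 and 46.2 CPM in the juvenile libraries and 5.44, 8.48, 12.4, 19.1 and 4.1 CPM in the mature libraries. Every mature library was below every juvenile one, a 5.04-fold (log2 -2.33, SE 0.44, adjusted p = 0.00766) decrease. Ilp8, the relaxin-like signal of growing tissue that delays metamorphosis, fell from 8.17 ± 2.43 to 1.22 ± 0.667 CPM by 6.68-fold (log2 -2.74, adjusted p = 0.00135), Nplp3 rose from 437 ± 60.6 to 825 ± 152 CPM by 1.89-fold (log2 0.92, adjusted p = 0.0033), and sNPF, the peptide of Kenyon cells, was not called (log2 -0.28). Of 20 clock genes, 1 (5%) was higher and 3 (15%) lower: the blue-light photoreceptor gene cry rose from 19.2 ± 3.53 to 42.3 ± 4.88 CPM by 2.21-fold (log2 1.14, adjusted p = 0.000899), while per (log2 0.54, adjusted p = 0.0584) and tim (log2 0.52, adjusted p = 0.0518) were not called. The 3 lower genes lost their calls without juvenile control 3. Hours of collection are not given in the labels, so an effect of time of day and of age cannot be told apart for these genes. Among 18 activity-regulated genes 5 (27.8%) were higher and 0 lower, with sr, an early growth response factor, at 121 ± 16.2 CPM in juvenile and 234 ± 36.4 CPM in mature libraries (1.93-fold, log2 0.95, SE 0.15, adjusted p = 0.00169) and kay, the fly Fos, at 384 ± 38.1 CPM in juvenile and 613 ± 58.4 CPM in mature libraries (1.6-fold, log2 0.67, SE 0.12, adjusted p = 0.00348). Hr38, the most used activity marker of the fly, was not called (log2 0.02). The activity count was 3 when juvenile control 1 or 3 or mature control 5 was left out, or with a weight per age.

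Odorant-binding proteins, which are made by support cells of chemosensory organs and by glia, were higher for 7 of 26 tested (26.9%) and lower for 1 (3.85%), with a median of 0.57. Obp56h was at 0, 0 and 0 CPM in the juvenile libraries and 4.96, 4.52, 3.71, 3.76 and 4.69 CPM in the mature libraries. Set against an assumed floor of 3 counts over the juvenile group, the mature mean was 177-fold higher (adjusted p = 4.98e-05). In knockdown libraries its log2 change was 3.83 (adjusted p = 0.0146), and the difference between genotypes was not called (adjusted p = 0.0646). Obp99c rose from 33.7 ± 4.83 to 134 ± 39 CPM by 3.96-fold (log2 1.99, adjusted p = 0.000516) and Obp44a fell from 215 ± 3.19 to 107 ± 21.6 CPM by 2.02-fold (log2 -1.01, adjusted p = 0.00147). Of 8 dosage compensation genes, 2 (25%) were higher and 1 (12.5%) lower. The higher count was 1 without juvenile control 3 or with a weight per age, and the lower count 0 without juvenile control 2 or 3 or mature control 3 or with a weight per age.

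The label of mushroom body nuclei was set against 11 lists of cell type markers. Kenyon cell markers were present at a summed 15430 to 23440 CPM in juvenile and 16660 to 25320 CPM in mature libraries, with overlap. The Kenyon cell determinants ey (log2 0.19) and toy (log2 0.07) and the Kenyon cell marker mub (log2 0.28) were not called. Of 15 such markers 1 was called, dac, at 382 ± 102 CPM in juvenile and 601 ± 124 CPM in mature libraries (1.57-fold, log2 0.65, SE 0.21, adjusted p = 0.0439), and its call was lost without juvenile control 1 (adjusted p = 0.131), juvenile control 3 (0.105) or mature control 1 (0.0759), 3 (0.0981) or 5 (0.0883), with a weight per library (0.0838) and with a weight per age (0.125).

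Markers of other cells were also present. The rhodopsin gene ninaE of photoreceptors was at 1578 ± 112 CPM in juvenile and 4095 ± 1749 CPM in mature libraries (2.6-fold, log2 1.38, SE 0.29, adjusted p = 0.00823, lost with a weight per age at adjusted p = 0.0949), and Mhc, muscle myosin, was at 1933 to 2933 CPM in juvenile and 976 to 6673 CPM in mature libraries. Summed glial markers were lower in every mature library, at 905 to 1397 CPM against 1730 to 1855 CPM. Of 10 glial markers tested, 4 were called lower and 2 higher, and 4 had a positive log2 change. The lower ones were loco (2.27-fold, log2 -1.18, SE 0.20, adjusted p = 0.00267), Gs2 (1.85-fold, log2 -0.89, SE 0.16, adjusted p = 0.00352), nrv2, given above, and the GABA transporter gene Gat (1.5-fold, log2 -0.59, SE 0.16, adjusted p = 0.0214). The higher ones were wrapper, which rose from 3.16 ± 1.49 to 8.34 ± 1.65 CPM by 2.63-fold (log2 1.40, adjusted p = 0.0136), and CG6126, which rose from 14.4 ± 3.02 to 21.6 ± 3.44 CPM by 1.5-fold (log2 0.58, adjusted p = 0.0421). The call of CG6126 was lost without juvenile control 1 (adjusted p = 0.109) or 2 (0.0913) or mature control 2 (0.0908), 3 (0.0651), 4 (0.0638) or 5 (0.0683), with RLE scaling (0.0587), the stricter filter (0.0542) and weights per library (0.124) or per age (0.111). The call of Gat was lost without juvenile control 2 (adjusted p = 0.0709) or 3 (0.0573) or mature control 5 (0.0517) and with a weight per age (0.0895). In contrast repo, the defining glial transcription factor, was at 26.9 ± 5.84 CPM in juvenile and 28.8 ± 3.19 CPM in mature libraries and was not called. Summed markers of other transmitter neurons were at 4169 to 4593 CPM in juvenile and 1287 to 2702 CPM in mature libraries, and ple made up most of the juvenile sum. The mean of the sum went from 4410 to 1820 CPM and that of ple from 3062 to 547.5 CPM. Of 10 such markers tested, 5 had a positive and 5 a negative log2 change, with a median of -0.05. Among them 1 was called higher and 2 lower. Summed neuroblast markers were at 269 to 344 against 98.5 to 231 CPM, and sensory neuron markers at 24.5 to 36.5 against 11.7 to 23.1 CPM. The neuroblast sum rests on few genes: of 7 markers 3 were tested, and mira and ase were at 0 counts. Of the juvenile mean of 303 CPM, insc gave 17.8 CPM. Of 8 sensory neuron markers tested 4 had a positive and 4 a negative log2 change, with a median of -0.05, and 1, nompC, was called. Among 15 photoreceptor markers 3 were higher and 2 lower, and among 9 haemocyte markers 0 were higher and 2 lower. The photoreceptor surface protein gene chp fell from 721 ± 74.3 to 326 ± 64.3 CPM by 2.21-fold (log2 -1.14, adjusted p = 0.000846), the mechanosensory channel gene nompC from 19.9 ± 1.66 to 7.69 ± 1.78 CPM by 2.59-fold (log2 -1.37, adjusted p = 0.0013), and the haemocyte genes Hml and NimC1 by 2.32-fold (log2 -1.21, adjusted p = 0.00764) and by 4.12-fold (log2 -2.04, adjusted p = 0.00481). Summed photoreceptor (5452 to 6052 against 5550 to 11740 CPM), muscle (9882 to 13840 against 4682 to 26760 CPM), haemocyte (838 to 985 against 786 to 1008 CPM) and chemosensory accessory cell markers (323 to 326 against 281 to 431 CPM) overlapped between ages.

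For the 5 lists that did not overlap (fat body, glia, other transmitter neurons, sensory neurons and neuroblasts), the two-sided exact permutation test gave p = 0.0357, the smallest that 5 against 3 libraries allows, and adjusted p = 0.0786 over the 11 lists, so none passed. The 13 markers at 0 counts in all 8 libraries, among them moody, alrm, Arr2 and mira, all overlap another gene, so their 0 cannot be read as absence. How far RNA of other cells enters the changes of the gene groups above was not tested.

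**Figure D4:**
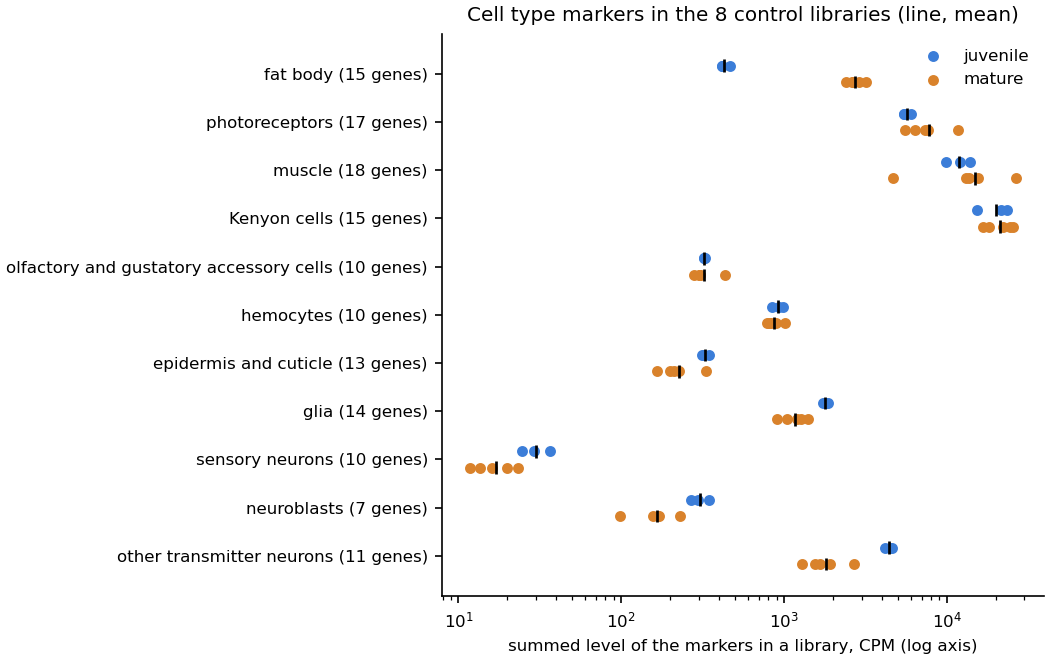
Summed level of 11 lists of cell type markers in each control library (horizontal axis, CPM, log scale; blue, 3 juvenile and orange, 5 mature libraries; black lines, means). Fat body markers are separated upward and glial, sensory neuron, neuroblast and other transmitter neuron markers downward, while Kenyon cell and muscle markers overlap.

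Several genes on the Y chromosome were lower in mature flies, although all flies were male. Ppr-Y (FBgn0046697; chromosome Y, 1636574 to 1884846, plus strand), known for its expression in the male germline, was at 5766, 12140 and 8506 CPM in the juvenile libraries and 436, 2039, 1094, 612 and 1076 CPM in the mature libraries. The decrease was 8.37-fold (log2 -3.07, SE 0.49, adjusted p = 0.00426), with no overlap. Of 12 Y-linked genes tested, 4 were lower and 0 higher, against 10.1% lower and 12% higher among all genes tested. The other 3, ORY, kl-5 and CCY, were chosen after their values were seen: ORY fell from 2715 ± 1453 to 518 ± 432 CPM by 5.24-fold (log2 -2.39, adjusted p = 0.0273), kl-5 from 985 ± 732 to 197 ± 109 CPM by 5-fold (log2 -2.32, adjusted p = 0.023) and CCY from 755 ± 478 to 165 ± 116 CPM by 4.58-fold (log2 -2.20, adjusted p = 0.0286). Juvenile control 2 was the highest juvenile library and mature control 2 the highest mature library for each of the 4. The lowest juvenile and highest mature values were close for kl-5 (413 and 383.5 CPM) and CCY (380.1 and 372.3 CPM). In knockdown libraries kl-5 was not called (adjusted p = 0.101), while Ppr-Y, ORY and CCY were called lower. The Y-linked genes not called in controls were at low level, with means of at most 8.49 CPM. The calls of ORY, kl-5 and CCY were not examined under other settings or with a library left out.

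Genes called lower were longer than genes called higher. The annotated span had a median of 7.06 kb among genes called lower, 2.86 kb among those called higher and 2.77 kb among all tested. Spans over 20 kb made up 23.9% of the lower, 3.39% of the higher and 9.47% of all tested genes. From under 2 kb to over 50 kb, the share called lower went from 4.99% to 29.4%, while the share called higher went from 10.3%, through 16.6% at 2 to 5 kb, to 2.7%. These are counts of genes, described without a test, and longer genes also collect more reads. Genes of the X chromosome made up 19.2% of the higher, 13.9% of the lower and 15.5% of all tested genes that the annotation places.

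**Figure D5:**
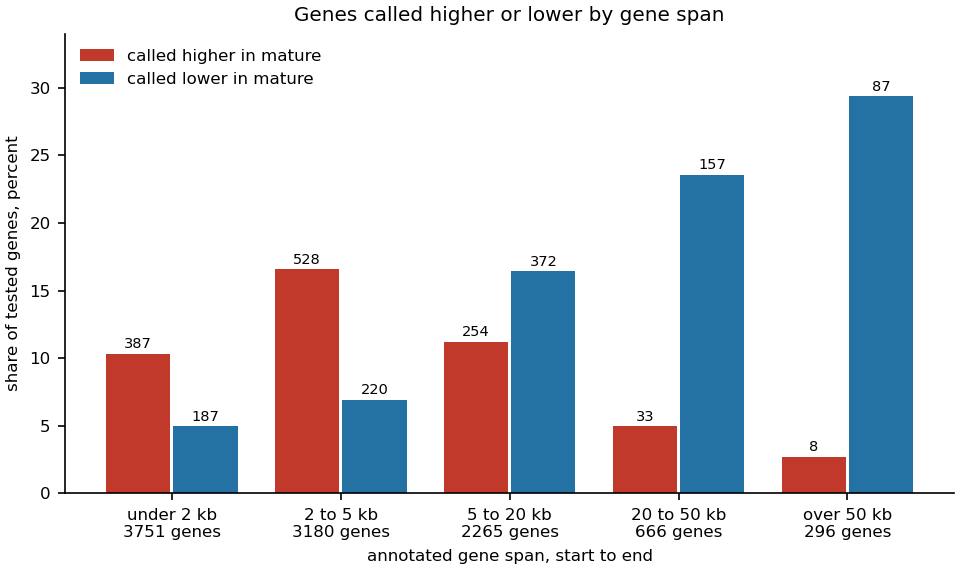
Share of tested genes called higher (red) or lower (blue) in mature flies by annotated gene span, in percent, with the number called above each bar. The blue bars climb from 4.99% under 2 kb to 29.4% over 50 kb, and the red bars peak at 16.6% between 2 and 5 kb.

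The same ages were compared in the 7 Bap60 knockdown libraries, which share no sample with the controls. There 4428 of 10543 genes (42%) were called, 2080 higher (19.7%) and 2348 lower (22.3%). Of the 2283 genes called in controls, 2265 were tested in the knockdown libraries: 856 were higher in both, 728 lower in both and 16 called in opposite directions. The shared calls were 69.4% of those in controls and 35.8% of those in knockdown libraries. The sign was the same for 93.7% of the genes called in controls and tested in both, against 77.2% of all 9957 genes tested in both. In the knockdown set, too, only the mature files list Unc84. A difference in counting between the ages could therefore be shared by both genotypes, and its part in this overlap was not tested. For nub the log2 change was -3.67 in knockdown against -4.68 in control libraries, for hid -1.25 against -2.52, for apolpp 4.14 against 3.99, for futsch 1.13 against 0.82 and for Ten-m -0.74 against -0.73.

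The difference of the age effect between genotypes was tested itself. Of 11997 genes 186 (1.55%) were called by edgeR, 153 with a more positive and 33 with a more negative change in the knockdown libraries, and 95 of these were among the 2283 genes called in controls. Leaving out juvenile control 1 raised the count to 457, while it was 111 with mature control 3 left out, 117 with mature control 5, 108 with juvenile knockdown 1 and 91 with mature knockdown 5. With a weight per age limma-voom called 0, and DESeq2 called 550, while 1955 genes had an unadjusted p under 0.05. Of 37 matched genes of the synaptic vesicle and active zone list, 6 were in this group of 186, against 1.55% of all genes tested. Syngr fell in controls and was not called in knockdown libraries (log2 -0.75 and 0.43, adjusted p of the difference 0.0106). The Na,K-ATPase subunit gene nrv2, also on the glial marker list, fell in controls and rose in knockdown libraries (log2 -0.58 and 0.47, 0.00657). Rop rose in both (log2 0.50 and 1.34, 0.0208). The actin genes Act42A (log2 -2.07 and -1.16, 0.0193) and Act5C (log2 -0.70 and 0.18, 0.0208) were in the group as well.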

How the data were processed

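Nuclear RNA of male flies was extracted with a column kit and made into libraries with a Nugen Ovation kit for Drosophila, per the labels' protocols. The deposited values are raw read counts per gene, 1 table per library; the authors used STAR 2.5.3a and HTSeq 0.7.1 with build BDGP6, per the submitters' processing notes. Annotation-based properties come from BDGP6.54, which gave symbols for 17253 of 17559 IDs. Lines naming no gene stayed out of totals. Of gene, no-feature and ambiguous reads together, reads in no feature made up 1.12 to 2.84% and ambiguous reads 7.08 to 7.75% across the series. In controls the no-feature share was 1.66 to 2.84% in juvenile and 1.12 to 1.65% in mature libraries. The Unc84 entry was left out.

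The 8 control libraries were scaled by TMM and tested alone in edgeR 4.0.16 (R 4.3.3) with the quasi-likelihood test, robust fitting, filterByExpr at a minimum count of 10 and minimum total of 15, and Benjamini-Hochberg adjustment over all tested genes. The same was done for the knockdown libraries, and the interaction of age and genotype was tested over all 15. Scripts were tested on simulated data. Summed markers were compared with a two-sided exact permutation test over 56 splits. Alternatives were other scalings and filters, DESeq2 1.42.0, limma-voom 3.58.1, stricter thresholds, a replicate block, a fit on all 15 libraries and leaving out each library. A planned description of promoter motifs was not run.

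Members, gene lists and marker lists were chosen with earlier results of these data known. Some listed genes could not be matched to a gene ID and were left out, among them Imp, br of the ecdysone list and para of the channel list. Named genes had to be among the 15 largest or smallest changes (3 of any name) with at least 10 CPM at an age and no overlap, among the 10 highest levels at an age, among up to 4 called members of a list per direction by p, or among the first 3 of a list; the 3 Y-linked genes ORY, kl-5 and CCY are the exception. Intervals for counting error are not given, since tests rest on the spread between libraries.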

Additional observations from a re-analysis of the deposited data

Results flagged for a closer look

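Within groups of 5 mature libraries, 137 values were examined for a library standing apart by a gap test, which flags about 5% of groups by chance, and 7 did. DIP-epsilon (55.32 CPM) and Psc (73.8 CPM) were highest in mature control 4. In mature control 2, ninaE (7149 CPM), ORY (1288 CPM), CCY (372.3 CPM) and the summed markers of olfactory and gustatory accessory cells (431 CPM) stood above the other mature libraries. Total gene counts were highest in mature control 3, at 70495790.

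For 9 named genes the change with age differed between genotypes in the edgeR interaction test. The difference, knockdown minus control on the log2 scale, was 0.93 for Act42A, 0.90 for Act5C, 1.07 for nrv2, 1.20 for Syngr, 0.86 for Rop, 1.64 for Hsp70Bb, 1.52 for Tep2 and 1.39 for sNPF, and it was -1.78 for Est-6. The limma-voom fit with a weight per age called 0 genes for this difference, so none of the 9 kept its call there.

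The Unc84 entry, which the report's comparisons leave out, is listed in the mature files and stood at 15694, 8653, 13711, 7049 and 9123 per 1000000 gene counts in mature controls 1 to 5. The 3 juvenile control files do not list this entry.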

How the results depend on the processing

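No gene named by the rule changed the sign of its change while called, under any alternative run. Control maturation gave 1359 calls (668 higher, 691 lower) with limma-voom and a weight per age, 974 (511 and 463) at an adjusted p under 0.01, and 421 (202 and 219) against a 1.5-fold change. Leaving out 1 library gave 1524 to 2249 calls, 813 to 1289 higher and 711 to 1155 lower. The share of higher calls was 54.4% with TMM, 58.6% with upper-quartile scaling and 60.1% with no filter, and lower calls were the larger number with RLE scaling (47.9% higher), DESeq2 (48.5%), the stricter filter (46.8%), a weight per age (49.2%), the 1.5-fold test (48%) and without mature control 4 (48.6%). Over the 100 called genes among the 125 described that met the naming rule, 10 lost their call with a weight per age, 54 against a 1.5-fold change and 6 without some single library. The calls of ORY, kl-5 and CCY, which the rule did not name, were not followed under the alternatives. Medians of the synaptic, learning and clock lists changed sign with scaling and are given no direction.

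In the knockdown libraries, 1359 genes were higher with a weight per age, 2592 were called at 0.01 (1142 higher, 1450 lower) and 2040 against a 1.5-fold change (719 and 1321), with 3557 to 4328 calls, 1650 to 2073 higher and 1907 to 2462 lower, when 1 library was left out. The difference between genotypes gave 102 calls (64 higher) with upper-quartile scaling, 550 (349 and 201) with DESeq2, 7 (7 and 0) with a weight per library, 0 (0 and 0) with a weight per age, 21 (18 and 3) at 0.01 and 5 (2 and 3) against 1.5-fold. Leaving out 1 library gave 91 to 457, 82 to 227 higher and 9 to 230 lower. The cause was not tested.

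Juvenile and mature libraries share only a replicate number: same-numbered libraries had correlations of -0.05, -0.22 and 0.03, and no juvenile library correlated best with its own number. A replicate block gave 1191 calls in controls (515 higher, 676 lower; 1098 also called without it; 43.2% higher), 766 in knockdown libraries (321 and 445) and 84 for the difference (64 and 20).

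With 5 against 3 libraries the smallest exact p is 0.0357, and a left-out library leaves too few splits to reach 0.05. Summed glial markers (log2 -0.12, p = 0.286), other transmitter neuron markers (-0.31, p = 0.0714) and sensory markers (-0.07, p = 0.714) did not reach the exact permutation test's minimum as mean log2 levels, nor did sensory markers with upper-quartile scaling (-0.79, p = 0.0714). Counts are few for genes of low level, and the juvenile spread rests on 3 libraries. Genes above 0 counts numbered 11264, 10026 and 10381 in juvenile controls 1 to 3. In mature controls 1 to 5 they numbered 12213, 13153, 11452, 11266 and 11553, although most of these libraries had fewer total counts. Among called genes, 36 higher ones had 0 counts in all juvenile libraries, and 0 lower ones had 0 counts in all mature libraries. The cause was not tested.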
